A study of Mus musculus with 29 samples.

Results

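A set of 45 genes of the second messenger and MAP kinase pathways were followed in the hypothalamus of tumour-bearing mice, by kinase family and time. The genes were taken by symbol: every probe whose symbol in the platform annotation began with Prka, Prkc, Prkg, Camk, Map2k, Map3k or Map4k, or with Mapk and a digit. The rule found 48 of 9008 probes, which stand for 45 of 8726 genes. It used no measured value, though it was chosen with earlier results of these data known. Not every symbol it takes encodes a kinase. Prkcsh encodes a subunit of glucosidase II, an enzyme of the endoplasmic reticulum, Camk2n2 an inhibitor of calmodulin-dependent kinase II, Mapk8ip2 a scaffold protein, and Prkag2os1 is an antisense transcript.

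Female BALB/c mice, 8 weeks old, received a subcutaneous injection of 100000 4T-1 cells in 100 µl PBS, or of PBS alone, and the hypothalamus was taken 18, 72 or 192 h later. The 4T-1 line is a transplantable mouse mammary carcinoma. Each 2-colour array, printed in-house with oligonucleotides, set the RNA of tumour-injected mice against that of mice given PBS at the same time, so every value below is the log2 ratio of tumour over PBS. Of the 13 biological replicates, the 9 with arrays on prints 3, 4 and 5 were used, 3 at each time. All 3 replicates at 18 h (numbered 3, 4 and 5) were on print 5, as were replicates 3 and 4 at 72 h and replicate 4 at 192 h. Replicate 1 at 72 h (print 4) and at 192 h (print 3) was poly(A) RNA on 1 array with tumour in Cy5, while the other 7 replicates were total RNA on 2 arrays with exchanged dyes. In those 2 replicates the kind of RNA, the orientation of the dyes, the lone array and the print cannot be told apart. At 192 h, where each replicate had its own print, print and replicate cannot be told apart either. The labels do not say whether a replicate pools several animals, so the p-values measure only the spread between these samples. In a whole tissue, fewer cells of a type and less RNA per cell cannot be told apart.

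Protein kinases of these families carry signals from the cell surface to enzymes, channels and transcription factors. Cyclic AMP, cyclic GMP, and calcium with diacylglycerol switch on protein kinases A, G and C, and calcium bound to calmodulin switches on the CaM kinases. AMP-activated kinase responds to a falling energy charge and takes part in the hypothalamic control of feeding. In a MAP kinase cascade each tier phosphorylates the next, from MAP4K through MAP3K and MAP2K to the MAP kinase itself. Most control of these enzymes acts on the protein, which the arrays did not measure.

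The share of spots with a usable ratio ran from 14.8% to 83.0% over the arrays. The direction of the ratio is likely rather than settled, because no scanner file says which dye its channels hold and the order of the labels was taken. With the channels the other way round every sign below would turn. After correction for dye, the ratios of the 2 arrays of a replicate correlated over probes at 0.69 in replicate 3 of 18 h and between -0.32 and 0.28 in the other 6. For kinase genes the median absolute difference between such arrays was 0.21 to 0.37 on the log2 scale. All 14 hypothalamic marker genes on the arrays had a ratio on some array, from 6 of 16 arrays for Pmch to 16 of 16 for Oxt, which encodes oxytocin. Ratios of different replicates of 1 time correlated over genes at a median of 0.03 (from -0.13 to 0.20, 9 pairs). Markers of cell types and regions moved between replicates as well. In replicate 3 of 18 h the 3 pituitary markers had a median log2 ratio of 0.54, the 4 blood cell markers 0.52 and the 6 markers of neighbouring brain regions -0.45. Those medians were 0.09, 0.39 and 0.10 in replicate 4, and the 7 microglia and macrophage markers had 0.08, -0.33 and 0.86 in replicates 3, 4 and 5. The 4 astrocyte markers on the arrays had a median of 0.45 in replicate 1 of 72 h, against 0.00 and 0.11 in replicates 3 and 4. The 15 neuronal markers had a median of 0.28 in replicate 1 of 192 h, against -0.03 and 0.10 in replicates 3 and 4. Medians of the 14 hypothalamic markers were 0.37, 0.24 and -0.06 in replicates 1, 3 and 4 of 192 h. Of the 7 tested there 6 were above 0, beside 49.4% of all genes. None was called, and 1, Foxb1, had an unadjusted p under 0.05 (limma). The part of these markers in the kinase ratios was not tested.

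Of the 45 genes 31 had a value in all 3 replicates of at least 1 time and could be tested, which is 68.9%, against 59.4% of all genes. Of these, 11 were tested at every time, 24.4% of the kinase genes against 8.46% of all genes. They were Prkar1a, Prkar1b, Prkg2, Prkag1, Prkcb, Prkcsh, Camk2n2, Map2k4, Mapk11, Mapk1ip1 and Mapk8ip2. The 14 genes with no test were Camk4, Map2k5, Map3k1, Map3k3, Map3k5, Map3k6, Map3k8, Map3k12, Map4k1, Mapk8, Mapk13, Prkar2a, Prkg1 and Prkag2os1. Mapk8, the gene of JNK1, and Prkag2os1 had no value in any replicate. A share of 35.6% of the kinase genes had a value in replicate 5 of 18 h and 95.6% in replicate 4 of 192 h, against 25.1% and 83.1% of all genes. The values of the kinase genes thus rest on unequal numbers of arrays, and a gene without a test is not shown to be unchanged.

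**Figure D1:**
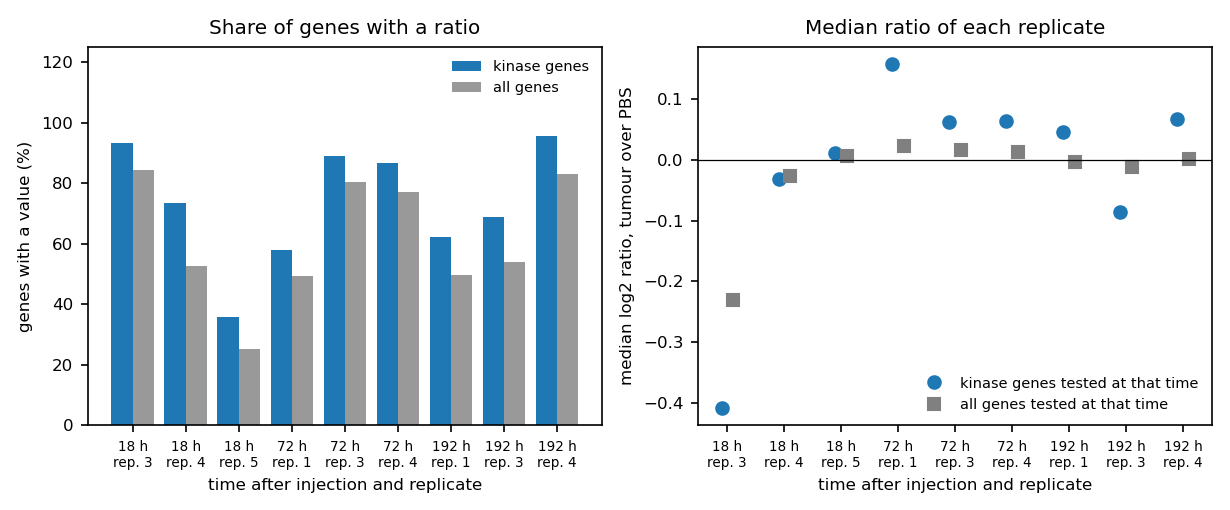
Left, the percentage of the 45 kinase genes (blue) and of all 8726 genes (grey) with a ratio in each replicate; right, the median log2 ratio of tumour over PBS, in each replicate, of the genes tested at that time, for kinase genes (circles) and all genes (squares). Kinase genes had a value more often than all genes in every replicate, and replicate 3 of 18 h stands apart at -0.41 and -0.23.

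No kinase gene passed the test at any time, and neither did any other gene (limma, adjusted p 0.05). At 18 h 0 of 12 kinase genes were called, against 0% of 1444 genes, at 72 h 0 of 22, against 0% of 3600, and at 192 h 0 of 26, against 0% of 3269. At an unadjusted p under 0.05 there were 2 kinase genes at 18 h (Prkcz and Prkg2), beside 6.02% of all genes. There was none at 72 h, beside 5.56%, and none at 192 h, beside 2.75%. The smallest adjusted p of a kinase gene by limma was 0.62 at 18 h, 0.948 at 72 h and 1.00 at 192 h. The standard error of a log2 ratio was 0.17 to 0.18 for the median gene, about the size of most kinase ratios.

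At 18 h 10 of the 12 tested kinase genes were below 0, against 69% of all genes tested, with a median of -0.14 against -0.09. This count leans on replicate 3, in which the 12 genes had a median of -0.41, against -0.03 in replicate 4 and 0.01 in replicate 5. Without replicate 3 the median over the kinase genes tested was 0.02. It was also above 0 with loess within print blocks (0.01), by the authors' value tables (0.01) and over replicates with both dye orientations, where only 2 of the genes were tested (0.07). Over all 42 kinase genes with a value in replicate 3, tested or not, the median was -0.03, beside -0.05 for all genes. At 72 h 6 of 22 kinase genes were below 0, against 46% of all genes, with a median of 0.10 against 0.02. Without replicate 1 the median was -0.02, but over the 36 kinase genes then tested, with all remaining replicates on print 5. Over the 22 genes the medians were 0.16, 0.06 and 0.06 in replicates 1, 3 and 4. Over all kinase genes with a value, tested or not, they were 0.18, 0.09 and -0.01, beside 0.02, 0.01 and -0.02 for all genes. At 192 h 14 of 26 were below 0, against 50.6%, with a median of -0.01 against -0.00.

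**Figure D2:**
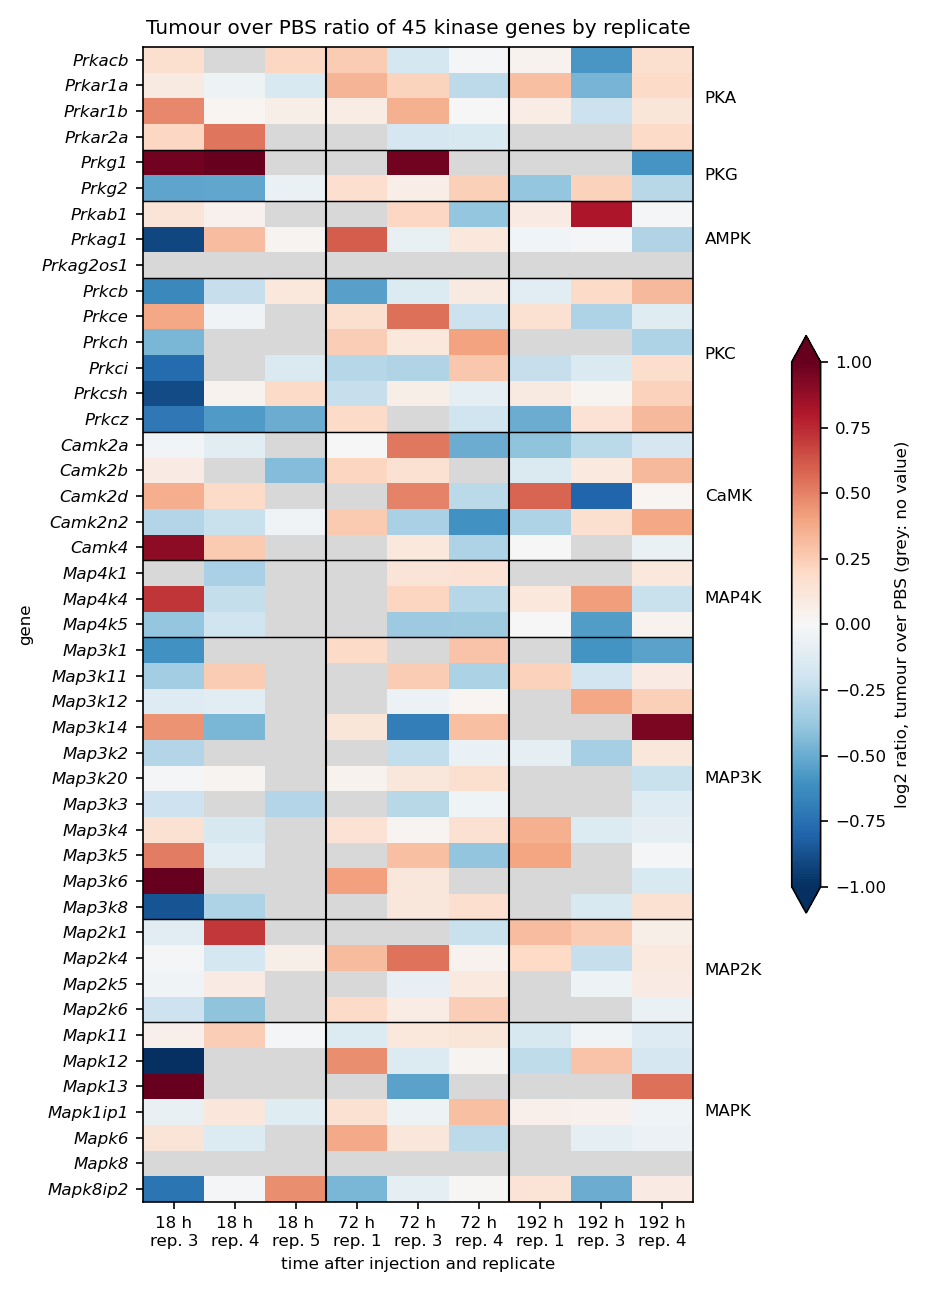
Log2 ratios of tumour over PBS of the 45 kinase genes (rows, grouped by family) in the 9 replicates (columns, by time), on a colour scale cut at -1 and 1; grey cells have no value. Few rows keep 1 colour within a time, Prkcz at 18 h and Map2k6 at 72 h among them, and 2 rows are empty.

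The replicates of a time spread about as widely for kinase genes as for other genes. The median SD of the 3 replicates was 0.20 for kinase genes against 0.27 for all genes at 18 h, 0.25 against 0.24 at 72 h and 0.23 against 0.25 at 192 h. Among tested kinase genes the widest spread belonged to Prkag1 at 18 h (SD 0.64), Map3k14 at 72 h (0.53) and Camk2d at 192 h (0.69). The narrowest belonged to Prkcz at 18 h (0.11), Map3k20 at 72 h (0.06) and Mapk1ip1 at 192 h (0.05). For Prkcz the same dye effect was subtracted from the single arrays of replicates 4 and 5, so its spread depends on that correction.

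All 3 replicates of 18 h were below 0 for Camk2n2, Prkcz and Prkg2, 3 of 12 kinase genes, beside 19.5% of all genes. They were all above 0 for Prkar1b, 1 of 12, beside 6.23%. At 72 h no kinase gene was below 0 in all 3 replicates, beside 11.9% of all genes, and 6 of 22 were above 0, beside 15%: Map2k4, Map2k6, Map3k4, Map3k20, Prkch and Prkg2. At 192 h Camk2a, Mapk11 and Prkag1 were below 0 in all 3, 3 of 26 beside 12.8%, and Map2k1 and Prkcsh above 0, 2 of 26 beside 11.8%.

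Protein kinase C held the lowest mean of the genes tested at any time. Prkcz encodes the atypical isoform zeta, which needs neither calcium nor diacylglycerol and is found in brain. At 18 h its log2 ratios were -0.72, -0.57 and -0.50 in replicates 3, 4 and 5, a mean of -0.59 ± 0.11 (SD, n = 3), or 0.662 of the PBS level in the likely direction and 1.51 times that level with the channels reversed. Every replicate lay below 0, and the unadjusted p was 0.0057, the adjusted p 0.62 (limma). In replicates 4 and 5 the value came from 1 array, with tumour in Cy5, and the dye effect subtracted there, 0.23, was itself the mean of 2 replicates. Without dye correction the mean was -0.44 (limma, unadjusted p 0.0255, adjusted p 0.681). The mean stayed below 0 in all 23 alternative settings in which Prkcz could be tested, between -0.67 and -0.15, the smaller size with median centring. Several of these settings, such as leaving out replicate 1 of 72 h, returned the same mean unchanged and so could not turn it. With only replicates of both orientations Prkcz could not be tested. Prkcz had 0.19 and -0.20 in replicates 1 and 4 of 72 h, and -0.49, 0.15 and 0.33 in replicates 1, 3 and 4 of 192 h, so that signs were mixed at both later times.

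Prkcb encodes the calcium-dependent isoform beta. It had -0.64, -0.23 and 0.11 at 18 h, a mean of -0.26 ± 0.38 (SD, n = 3), then -0.20 ± 0.32 at 72 h and 0.14 ± 0.22 at 192 h. Prkcsh, the glucosidase subunit, had -0.90, 0.04 and 0.19 at 18 h, so its mean of -0.22 ± 0.59 rests on replicate 3. All 3 members of the group tested at 18 h were therefore below 0 in the mean, but 2 of them had replicates of both signs, and with loess within print blocks Prkcb and Prkcsh stood just above 0. Prkcsh had -0.09 ± 0.14 at 72 h and 0.12 ± 0.10 at 192 h, where its 3 replicates lay between 0.03 and 0.23.

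The calcium-independent isoforms epsilon and eta, which answer to diacylglycerol, are encoded by Prkce and Prkch. Prkch had 0.24, 0.11 and 0.40 at 72 h, a mean of 0.25 ± 0.15 (SD, n = 3), the second highest of the kinase genes tested at that time, with an adjusted p of 0.984 (limma). Prkch had a single value at each of the other times, -0.46 at 18 h and -0.31 at 192 h, both below its 72 h range. Prkce had 0.16 ± 0.38 at 72 h and -0.09 ± 0.23 at 192 h. Prkci, the atypical isoform iota, had -0.11 ± 0.32 and -0.07 ± 0.21, and its 2 values at 18 h were -0.77 and -0.14. The median log2 ratio of the group counts Prkcsh, which does not encode a kinase. It was -0.26 at 18 h (3 genes), -0.09 at 72 h (5 genes) and -0.01 at 192 h (5 genes). The 72 h median is the mean of Prkcsh itself, with Prkcb and Prkci below it and Prkce and Prkch above 0. The sign of the group median turned in 1, 2 and 10 of the alternatives run at these times.

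The kinases of cyclic GMP gave the next lowest mean of the genes tested at 18 h. Prkg2 encodes the membrane-bound kinase G II, which regulates ion transport and has a part in circadian timing in the rodent brain. Its ratios were -0.53, -0.52 and -0.06 in replicates 3, 4 and 5 of 18 h, a mean of -0.37 ± 0.26 (SD, n = 3), or 0.774 of the PBS level (1.29 times with the channels reversed). The unadjusted p was 0.0401 and the adjusted p 0.766 (limma), and replicate 5 lay close to 0. The sign held in all 23 settings in which it was tested, but the size ran from -0.55 under normexp to -0.04 by the authors' value tables. Here too several settings left the mean unchanged. At 72 h Prkg2 had 0.17, 0.07 and 0.24, a mean of 0.16 ± 0.08 that turned to -0.01 with median centring. At 192 h it had -0.38, 0.23 and -0.28, with mixed signs.

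Prkg1, the soluble kinase G I that relaxes smooth muscle and acts in nitric oxide signalling, could not be tested and is described because its values were among the largest of the set; it was chosen after its values were seen. It had 0.97 and 1.16 in replicates 3 and 4 of 18 h, 0.97 in replicate 3 of 72 h and -0.59 in replicate 4 of 192 h. The dye effect subtracted, 0.60, rests on 1 replicate. Before that subtraction the 3 arrays at 18 h read 0.36, 1.57 and 0.56, the 72 h array 0.37 and the 192 h array 0.01. Where 2 values were enough for a test, Prkg1 had the smallest p of the kinase genes at 18 h, 0.00231 unadjusted and 0.625 adjusted (limma). Of the guanylyl cyclases and cGMP phosphodiesterases, which make and break cyclic GMP, 6 genes are on the arrays and 1, 2 and 2 were tested at 18, 72 and 192 h. None was called, and none had an unadjusted p under 0.05.

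The means of the tested protein kinase A genes lay between -0.13 and 0.19. Its regulatory subunits hold the catalytic subunits inactive until cyclic AMP binds. Prkar1b, the neuronal regulatory subunit RI beta, had 0.48, 0.02 and 0.06 at 18 h, the highest mean of the kinase genes tested at that time, 0.19 ± 0.26 (SD, n = 3). That mean rests on replicate 3 and turned below 0 with median centring. At 72 h Prkar1b had 0.14 ± 0.19 and at 192 h -0.01 ± 0.18, and these means turned sign in 2 and 4 of the alternatives run. Prkar1a, the RI alpha subunit, was the only kinase gene measured on all 16 arrays. It had -0.04 ± 0.12, 0.10 ± 0.32 and 0.01 ± 0.41 at 18, 72 and 192 h, and each of these means turned sign in 4 or more alternatives.

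Prkacb, a catalytic subunit of kinase A, had 0.16 and 0.21 in 2 replicates of 18 h, 0.02 ± 0.22 at 72 h and -0.13 ± 0.40 at 192 h. Its 192 h mean rests on replicate 3, at -0.58, and was above 0 with median centring. Prkar2a, the RII alpha subunit, was not tested, and its 2 probes disagreed, with 0.21 and -0.42 in replicate 3 of 18 h. Around kinase A, 13 adenylyl cyclases and cAMP phosphodiesterases are on the arrays, and 2, 4 and 6 of them were tested at the 3 times. None was called. Adcy8, a calcium-stimulated cyclase, had 0.53, 0.41 and 0.46 at 192 h (mean 0.47 ± 0.06, SD, n = 3; limma, adjusted p 1.00), and Pde1a, a calcium-stimulated phosphodiesterase, -0.46, -0.45 and -0.18 (limma, unadjusted p 0.037). Both kept 1 sign in all 3 replicates and in every alternative run, but the size varied widely. The mean ran from 0.09 to 1.01 for Adcy8 and from -0.79 to -0.05 for Pde1a. Of 9 kinase A anchoring proteins 3, 3 and 2 were tested, with medians of 0.07, -0.01 and 0.08.

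AMP-activated kinase was represented by 2 of its subunits. Prkag1, the gamma subunit that senses AMP, had -0.91, 0.31 and 0.03 at 18 h, the widest spread of the 12 genes, and without replicate 3 its mean was above 0. It had 0.60, -0.07 and 0.10 at 72 h, a mean of 0.21 ± 0.35 (SD, n = 3) that rests on replicate 1, and -0.02, -0.02 and -0.30 at 192 h. Prkab1, a beta subunit that scaffolds the complex, had 0.08, 0.81 and -0.02 at 192 h. Its mean of 0.29 ± 0.45 was the highest of the kinase genes tested at that time, rests on replicate 3, and was below 0 with loess within print blocks and by the authors' value tables.

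The CaM kinases were led by Camk2a and Camk2b, the main neuronal subunits of CaM kinase II, an abundant enzyme of synapses. Camk2a had -0.40, -0.27 and -0.17 in replicates 1, 3 and 4 of 192 h, a mean of -0.28 ± 0.12 (SD, n = 3), or 0.824 of the PBS level (1.21 times with the channels reversed). It was the lowest mean of the kinase genes tested at 192 h and had the smallest p there, 0.153 unadjusted and 1.00 adjusted (limma). The mean stayed below 0 in all 24 settings in which it was tested, between -0.42 and -0.22, though several of these left it unchanged. At 72 h the same gene had 0.00, 0.52 and -0.50, with no common sign.

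Camk2n2, whose product inhibits CaM kinase II, had -0.29, -0.22 and -0.03 at 18 h, a mean of -0.18 ± 0.13 (SD, n = 3). Its mean was -0.22 ± 0.44 at 72 h and 0.08 ± 0.35 at 192 h, both with replicates on either side of 0. Camk2b had 0.09 ± 0.23 and Camk2d, the delta subunit, -0.07 ± 0.69 at 192 h, where its replicates were 0.58, -0.80 and 0.02. Camk4, a nuclear kinase that phosphorylates CREB, had 0.90 and 0.26 in 2 replicates of 18 h and was not tested. Of 6 calmodulin and calcineurin genes 2, 4 and 6 were tested, and none was called. Pcp4, a calmodulin-binding peptide, had 0.79, 0.53 and 0.03 at 72 h (mean 0.45 ± 0.39, SD, n = 3; limma, adjusted p 0.742).

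**Figure D3:**
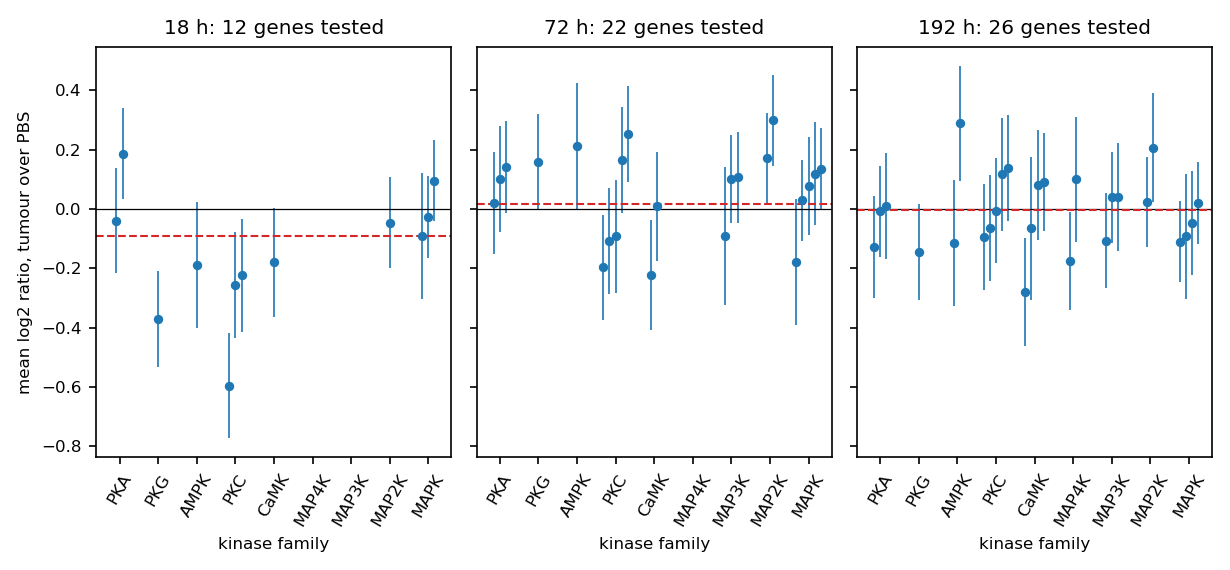
Mean log2 ratio of tumour over PBS of each tested kinase gene (points, with limma's standard error as bars, n = 3) by family at 18, 72 and 192 h; the dashed line is the median of all genes tested at that time. Prkcz lies lowest at 18 h, both MAP2K genes lie above the line at 72 h, and at 192 h points lie on either side of it in most families.

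In the MAP kinase cascade, the MAP2K tier held the highest mean of the genes tested at 72 h. Map2k4 encodes MKK4, which activates the stress kinases JNK and p38. It had 0.32, 0.54 and 0.04 in replicates 1, 3 and 4 of 72 h, a mean of 0.30 ± 0.25 (SD, n = 3), or 1.23 times the PBS level (0.813 with the channels reversed). All 3 replicates lay above 0, replicate 4 only just, and the unadjusted p of 0.0721 (adjusted 0.948, limma) was the smallest of the 22 genes. The mean kept its sign in all 24 settings run, between 0.07 and 0.50, though several of these left it unchanged. At 18 h Map2k4 had -0.02, -0.18 and 0.06 and at 192 h 0.20, -0.23 and 0.10, values on both sides of 0.

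Map2k6, which encodes MKK6, an activator of p38, had 0.19, 0.08 and 0.25 at 72 h, a mean of 0.17 ± 0.09 (SD, n = 3). Its 2 values at 18 h were -0.21 and -0.40 and its 1 value at 192 h -0.07. The median of the MAP2K tier at 72 h, 0.24 over 2 genes, was the only family median of that time that kept its sign in every alternative run. Map2k1, which encodes MEK1, the activator of ERK, had 0.31, 0.26 and 0.06 at 192 h, a mean of 0.21 ± 0.13 that turned to -0.02 with loess within print blocks. Map2k5, the activator of ERK5, was not tested and lay between -0.09 and 0.09 by its brighter probe in 6 replicates. Its dimmer probe, measured in 3 replicates, read 0.12 in replicate 4 of 18 h, -0.25 in replicate 4 of 72 h and 0.10 in replicate 4 of 192 h.

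The upper tiers were seldom measured. Of 11 MAP3K genes none was tested at 18 h and 3 each at 72 and 192 h. Map3k4 had 0.11 ± 0.07 and Map3k20, a kinase also known as ZAK, 0.10 ± 0.06 at 72 h (SD, n = 3), each above 0 in all 3 replicates. Map3k14, which encodes the NF-kappa-B inducing kinase, had 0.12, -0.69 and 0.30 at 72 h, with no common sign. At 192 h Map3k2, Map3k4 and Map3k11 had means between -0.11 and 0.04.

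Among untested MAP3K genes Map3k1, which encodes MEKK1, was described after its values were seen. It had -0.60 and -0.53 in replicates 3 and 4 of 192 h, against 0.19 and 0.29 in replicates 1 and 4 of 72 h and -0.61 in replicate 3 of 18 h. At 192 h each value came from 1 array with tumour in Cy3. Map3k8, the gene of Tpl2, had -0.86 and -0.31 at 18 h and 0.12 and 0.16 at 72 h. Map3k6 had the largest single value of all, 1.79 in replicate 3 of 18 h, and 0.41, 0.11 and -0.15 elsewhere. Map3k3 was below 0 in all 5 replicates with a value, from -0.29 to -0.04. Of the MAP4K tier only Map4k4 and Map4k5 were tested, both at 192 h. Map4k5 had 0.00, -0.56 and 0.03 there (mean -0.17 ± 0.33) and -0.36 and -0.35 at 72 h.

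In the family of the MAP kinases themselves the mean of every tested gene, by its brightest probe, lay between -0.18 and 0.13. Mapk11, the gene of p38 beta, had 0.05, 0.25 and -0.01 at 18 h, -0.14, 0.10 and 0.12 at 72 h and -0.16, -0.04 and -0.13 at 192 h. These 9 values span 0.41 on the log2 scale, the narrowest range of the 11 genes tested at every time, with Mapk1ip1 next at 0.42. Mapk11 was below 0 in all 3 replicates of 192 h, at a mean of -0.11 ± 0.06 (SD, n = 3; limma, adjusted p 1.00), and stayed so in all 25 alternatives. Mapk1ip1, by its name an interactor of the kinase ERK2, had means of -0.03, 0.13 and 0.02 at the 3 times.

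Mapk8ip2, which encodes a scaffold of the JNK cascade, had -0.73, -0.01 and 0.47 at 18 h, values on both sides of 0. Its means were -0.09 ± 0.60, -0.18 ± 0.25 and -0.09 ± 0.35 (SD, n = 3), and the one at 72 h was above 0 only with the replicate number as a block. Mapk12, which encodes p38 gamma, had 0.12 ± 0.31 at 72 h and -0.05 ± 0.29 at 192 h, and a single 18 h value of -1.21 in replicate 3. Mapk13, p38 delta, had 3 values in all, 1.09, -0.53 and 0.55, 1 at each time, with a dye effect of 0.52 from 1 replicate. Mapk6, an atypical MAP kinase called ERK3, had 0.08 ± 0.32 at 72 h by its brighter probe. In replicate 1 of that time its 2 probes read 0.38 and -0.43. The dimmer probe, measured in 9 replicates against 7 for the brighter, was not tested alone. It read -0.53, -0.30 and 0.01 at 18 h, -0.43, -0.06 and 0.08 at 72 h, and -0.03, -0.31 and -0.05 at 192 h.

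Upstream and downstream of the cascade no gene was called. Of 11 Ras and Raf genes 3, 6 and 7 were tested at the 3 times, with 1, 5 and 6 below 0, beside 69%, 46% and 50.6% of all genes. Grb2, the adaptor that links receptors to Ras, had -0.95, -0.42 and -0.13 at 72 h (mean -0.50 ± 0.41, SD, n = 3; limma, adjusted p 0.808). Of 10 MAP kinase phosphatases 3, 6 and 4 were tested, and Dusp22 had -0.37, -0.49 and -0.26 at 72 h. Of 21 G protein subunits 7, 11 and 13 were tested. At 192 h Gna12, an alpha subunit, had 0.76, 0.62 and -0.03, and Gnb3, a beta subunit, -0.36, -0.15 and -0.54.

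Of the nuclear targets 4, 6 and 6 of 16 genes were tested, with 3, 2 and 5 below 0, beside the same shares of all genes. Egr4, an immediate early gene, had -0.68, -0.95 and -0.11 at 192 h (mean -0.58 ± 0.43, SD, n = 3; limma, unadjusted p 0.00805, adjusted p 1.00). Of 7 phospholipase C, inositol trisphosphate receptor and diacylglycerol kinase genes 0, 1 and 1 were tested, and of 4 kinases acting below MAP kinases 1, 3 and 2. Over the 10 lists, 103 genes are on the arrays. Of them 0 of 26 had an unadjusted p under 0.05 at 18 h, 3 of 46 (6.52%) at 72 h and 5 of 49 (10.2%) at 192 h, beside 6.02%, 5.56% and 2.75% of all genes tested at these times. No test was made of these counts, and the lists were chosen with earlier results of these data known.

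**Figure D4:**
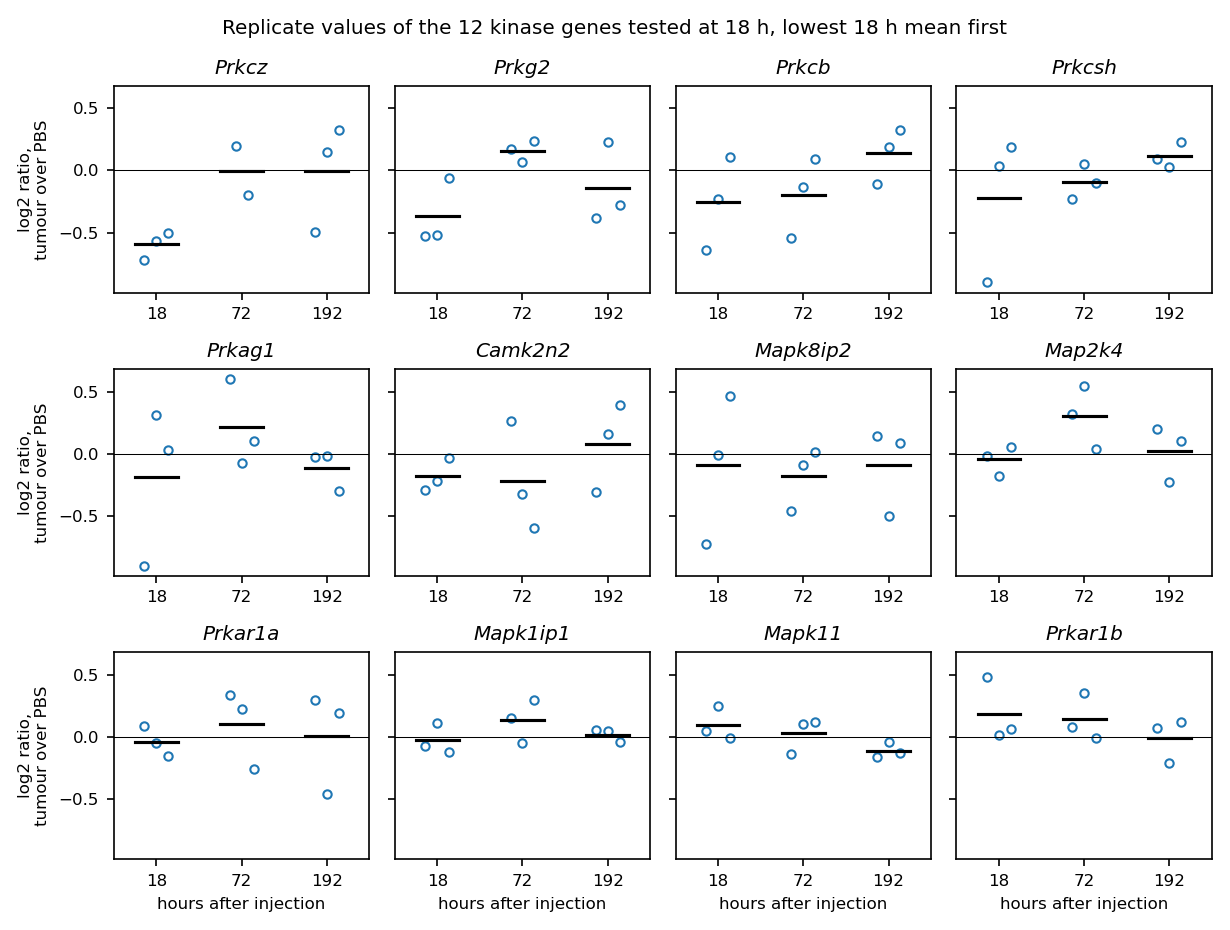
Replicate log2 ratios of tumour over PBS (open circles) and their mean (bar) at 18, 72 and 192 h for the 12 kinase genes tested at 18 h, ordered by the 18 h mean. Prkcz has its circles between -0.72 and -0.50 at 18 h and mixed signs later, while in most other panels the circles of a time lie on both sides of 0.

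The ratios of the times were also compared directly. For 72 h minus 18 h 0 of 11 kinase genes were called, against 0% of 1001 genes, for 192 h minus 18 h 0 of 12, against 0% of 972, and for 192 h minus 72 h 0 of 17, against 0% of 1894. Prkg2 had the smallest p for 72 h minus 18 h, with a difference of 0.53 (SE 0.23; limma, unadjusted p 0.0383, adjusted p 0.84), 1 of 11 beside 5.29% of all genes. All its 72 h replicates lay above all its 18 h replicates. On print 5 alone, without replicate 1 of 72 h, the difference was 0.52 (limma, unadjusted p 0.0737), and by the authors' value tables it was 0.06. Prkcz had the smallest p for 192 h minus 18 h, with a difference of 0.59 (SE 0.25; limma, unadjusted p 0.0368, adjusted p 0.929), 1 of 12 beside 3.4%. The 192 h replicate on the lower side, at -0.49, lay just above the highest 18 h replicate, at -0.50. Over the alternatives the Prkcz difference ran from 0.16 by the authors' value tables to 0.83 without replicate 1 of 192 h. It was 0.22 with loess within print blocks (limma, unadjusted p 0.229) and 0.28 with median centring (unadjusted p 0.592). All 18 h replicates were on print 5, but at 192 h only replicate 4 was, so time and print are mixed in this difference.

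The signs of these differences are read against those of all genes. For 72 h minus 18 h 4 of 11 kinase genes were below 0, beside 31.2% of all genes, and for 192 h minus 18 h 3 of 12, beside 37%. For 192 h minus 72 h 12 of 17 were below 0, beside 64.3%, with none at an unadjusted p under 0.05, beside 2.27%. The comparisons share replicates. Of the 38 kinase genes with at least 2 values at 2 or more times, 7 had opposite signs in all measured replicates of 2 times, 18.4% beside 13.2% of all genes, and no test was made of that count. Over all 3 times together 0 of 11 kinase genes were called, against 0% of 738 genes, with 6 of 11 means below 0, beside 63.8%. None of the 11 had an unadjusted p under 0.05, beside 3.12% of all genes (limma). The smallest p of these was that of Prkg2, at a mean of -0.12 (SE 0.09; limma, unadjusted p 0.228, adjusted p 0.973).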

How the data were processed

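The scanner files list, for each spot and channel, an intensity that the authors' software had already corrected for local background, and a saturation factor, a fraction given per the file headers. The authors' deposited value tables hold a log ratio per spot, with an unknown log base, treated here as a score. They correlated at 0.40 to 0.88 per array with the tumour over PBS ratios, whose direction rests on the assumed channel order. They are centred (medians -0.007 to 0.011). The image software is not given in the sources used here.

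Spots not marked as measured, saturated or not above 0 were left out. Each of 3 scans per array was normalized by loess (span 0.3, 4 iterations; limma 3.58.1, R 4.3.3) and the mean over scans was taken. A dye effect per probe, averaged from the Cy5 over Cy3 log2 ratios of the 7 replicates labelled both ways, was subtracted; probes lacking one were left out. The brightest probe stood for a gene (11 probes with several symbols left out). The 13 arrays of prints 1 and 2 were not used, because intensities matched by probe name correlated at 0.04 to 0.15 with those of prints 3 to 5, against 0.55 to 0.59 among prints 3 to 5. The number of arrays limits the precision.

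Each gene was fitted by limma with 1 mean per time, the spread being moderated over 5184 genes (prior degrees of freedom 6.96), two-sided tests and Benjamini-Hochberg adjustment per comparison. Values are means ± SD of replicates. The members and gene lists were chosen with earlier results of these data known. Members are named if called, at an unadjusted p under 0.05, among the 4 highest or lowest of a time, or tested at every time. Pathway genes are named at an unadjusted p under 0.05, at most 2 a list. Others were chosen after their values were seen. Scripts were tested on simulated data. Normalization, background, dye correction, filters, blocks and single replicates were varied.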

Additional observations from a re-analysis of the deposited data

Results flagged for a closer look

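In 7 kinase genes the replicates measured at 1 time all lay on one side of 0 and those of another time all on the other side. That is 18.4% of the 38 kinase genes with at least 2 values at 2 or more times, beside 13.2% of all 6253 such genes. Of these only Prkg2 had 3 values at both times and was tested: its log2 ratio was higher by 0.528 at 72 h than at 18 h (limma, adjusted p 0.84). For the other 6 the difference was not tested, with 2 or 3 values a time. Map3k1 differed by -0.804 (192 h minus 72 h), Map3k8 by 0.725 (72 h minus 18 h) and Camk4 by -0.617 (192 h minus 18 h). The 192 h values of Camk4 lay close to 0, at -0.005 and -0.07 in replicates 1 and 4. Prkar2a differed by -0.532 and Map2k6 by 0.476 (72 h minus 18 h), and Map3k12 by 0.43 (192 h minus 18 h). The other probe of Prkar2a did not show opposite signs. It read -0.42 and -0.36 in replicates 3 and 5 of 18 h and -0.17 and -0.03 in replicates 1 and 4 of 72 h. Where 2 values were enough for a test, the smallest adjusted p of a kinase gene was 0.79 for 72 h minus 18 h, 0.92 for 192 h minus 18 h and 0.999 for 192 h minus 72 h (limma).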

How the results depend on the processing

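No kinase gene was called in any comparison under any of the 25 alternatives, the smallest adjusted p among them being 0.306 (limma, Prkcz at 18 h with the replicate block). Over all genes 2 were called at 72 h with only replicates of both dye orientations, an alternative chosen after seeing the data, and 0 under the others. The median kinase ratio at 72 h, 0.10, was 0.177 under normexp, 0.0245 where 2 replicates sufficed, 0.0119 by the authors' value tables, 0.0339 with the replicate block and -0.0282 over replicates with both orientations; the cause was not tested. The kinase genes tested under these settings numbered 13 to 40. Leaving out 1 replicate, which could also change the genes tested, gave -0.0184 to 0.105 at 72 h. It gave -0.17 to 0.02 at 18 h and -0.05 to 0.05 at 192 h. Of 1051 values of named kinase genes under the alternatives 76 changed sign. Some alternatives, such as leaving out a replicate of another time, often left a mean unchanged. Counts of settings that kept a sign are therefore not counts of separate checks. The values do not settle whether replicate numbers pair the samples, and the main fit did not pair them. Correlations of deviations were -0.08 to 0.18 in 7 pairs of the same number and -0.21 to 0.10 in 20 other pairs. Of 8 replicates 5 were best matched to their own number. With the replicate block the count of called genes was 0, as in the main fit. With a standard error near 0.17 and 3 replicates, most ratios seen here could not be told from 0.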
